A study of Mus musculus with 24 samples.

Results

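The genes described here encode the subunits of potassium channels. They are the protein-coding genes whose mouse symbol starts with Kcn, other than 2 left out by the rule, with at least 10 counts summed over the 24 libraries of the study. The rule took 84 of the 55421 gene identifiers in the deposited table. A further 8 protein-coding Kcn genes had between 0 and 9 counts in all and were left out by the minimum: Kcnj1, Kcnk16, Kcne1, Kcna7, Kcnk18, Kcnmb3, Kcnv2 and Kcna10.

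The libraries hold 3′ tags, short reads from the 3′ end of polyadenylated RNA, from the left brain hemisphere of mice aged 3 months. Wild type and Nox2 knockout mice were each given a daily injection into the abdominal cavity for 4 days, 100 µl of phosphate-buffered saline (PBS) in control animals and 100 µl of lipopolysaccharide (LPS) in the others. LPS, an outer membrane component of gram-negative bacteria that provokes systemic inflammation, was from Salmonella abortus equi and given at 1 µg per g of body weight per day. There were 6 animals in each of the 4 groups, and the strain label of both genotypes is C57BL/6J. Nox2, also called gp91phox, is the electron-carrying core of the oxidase with which phagocytes make superoxide, and Cybb encodes it. The labels do not say which exon the knockout allele removes or whether the wild type animals were littermates. Lowest, median and highest Cybb levels were 0.853, 1.43 and 2.5 CPM (counts per 1000000 counts of the scaled library) in wild type after PBS and 63.1, 66.7 and 76.2 CPM in the PBS group labelled knockout. After LPS they were 15.7, 24.8 and 34.0 CPM in wild type and 67.5, 72.0 and 77.3 CPM in the group labelled knockout. Cybb tags were thus higher, not lower, in the groups labelled knockout, and the cause was not tested. A 3′ tag does not show whether an upstream exon is missing, so the genotype stands on the labels.

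Potassium channels let potassium leave a cell along its gradient and thereby set the resting potential, end action potentials and limit how often a neuron can fire. Voltage-gated subunits (Kv1 to Kv4, KCNQ and the ether-a-go-go family) open on depolarisation, calcium- and sodium-activated channels couple the ion load of a cell to its excitability, inward rectifiers and K2P channels carry current near rest, and auxiliary subunits change where the pores are placed and how they gate. In the brain most of these genes are known from neurons, while Kir4.1, encoded by Kcnj10, is the main potassium conductance of astrocytes and takes up the potassium that firing neurons release.

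Libraries held 2340184 to 5256169 counts. Counts of the 84 genes made up 0.449% ± 0.0115 (SD, n = 6) of a library in wild type after PBS, 0.424% ± 0.0141 in wild type after LPS, 0.466% ± 0.00563 in the PBS group labelled knockout and 0.434% ± 0.00921 in the LPS group labelled knockout. In wild type after LPS, replicates 1 and 2 stood apart from replicates 3 to 6. The chi-square per degree of freedom over genes was 1.83 between replicates 1 and 2 and 2.88 to 4.74 between either of them and any of the other 4. Among replicates 3 to 6 it was 1.72 to 3.10, so the split was not clean. It reached 3.52 between replicates 1 and 5 of the PBS group labelled knockout. Results that rest on replicates 1 and 2 of wild type after LPS are given with and without these 2 libraries. Levels below are CPM on library sizes scaled by the TMM method. CPM of a tag count is not divided by length, because a transcript gives about 1 tag whatever its length, and levels of different genes are set side by side on that basis only.

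The genes differed widely in level. Mean levels over all libraries exceeded 100 CPM for 15 of the 84 genes, exceeded 10 CPM for 50, and were under 1 CPM for 12. The 10 highest genes held 50.5% of the summed level. Kcna2, a Kv1 subunit of axons, was highest at a mean of 289 CPM over 24 libraries, followed by Kcnma1, the BK channel, at 288 CPM and Kcnc1, the Kv3.1 subunit of fast-firing neurons, at 279 CPM. The filter on low counts left 68 genes to test and dropped 16, with 13 to 170 counts in all libraries together.

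Promoters are shown for 3 genes on which the results turn: Kcnh7 and Kcnc1, which fell after LPS in both genotypes, and Kcnj10, the astrocyte channel, which fell in wild type. The RefSeq promoter table (GRCm38.p6, 250 bases before to 50 bases after each start) matched 61 of the 84 genes, with 86 windows of 300 bases. Each line gives the 250 bases before the start, 5′ to 3′ on the strand of the gene, with GC boxes (GGGCGG on either strand) in capitals. Kcnh7 lies on the minus strand and its stretch is chr2:63184288-63184537, with 4 GC boxes. Kcnc1 lies on the plus strand and its stretch is chr7:46396218-46396467, with 3 GC boxes. Kcnj10 lies on the plus strand and its stretch is chr1:172340960-172341209, with 2 GC boxes.
Kcnh7: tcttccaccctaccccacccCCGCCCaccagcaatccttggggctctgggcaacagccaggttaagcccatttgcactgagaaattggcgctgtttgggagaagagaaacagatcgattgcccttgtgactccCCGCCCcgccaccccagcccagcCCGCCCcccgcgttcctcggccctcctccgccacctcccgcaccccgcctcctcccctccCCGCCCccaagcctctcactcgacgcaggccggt
Kcnc1: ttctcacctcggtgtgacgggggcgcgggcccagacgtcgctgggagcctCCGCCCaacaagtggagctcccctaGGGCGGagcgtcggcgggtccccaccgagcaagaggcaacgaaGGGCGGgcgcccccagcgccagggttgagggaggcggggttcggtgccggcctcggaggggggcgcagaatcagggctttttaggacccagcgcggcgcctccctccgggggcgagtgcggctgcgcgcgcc
Kcnj10: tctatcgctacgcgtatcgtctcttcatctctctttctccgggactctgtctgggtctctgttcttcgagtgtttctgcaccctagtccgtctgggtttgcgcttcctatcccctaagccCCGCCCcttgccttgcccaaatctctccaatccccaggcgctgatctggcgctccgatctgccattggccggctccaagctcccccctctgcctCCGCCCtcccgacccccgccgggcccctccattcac

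GC boxes were present in 52.3% of the 86 windows, against 35.6% of all 32817 promoters in the table and 47.7% of the 20108 promoters of protein-coding symbols. Base composition differed too, with a median GC content of 59.7% in the windows of channel genes, 52.7% in all promoters and 57.0% in those of protein-coding symbols. A TATA box (TATAAA on either strand) was found in 4.65% of the windows and in 13.6% of all promoters. The E-box CACGTG was found in 8.14% and 7.15%. The cyclic AMP response element TGACGTCA and the NF-kB consensus, searched on both strands, were in 0 windows of channel genes and in 1.79% and 0.411% of all promoters. None of these 5 motifs contains another. Of the 19 genes called lower after LPS in either genotype, 14 had a promoter in the table, and 10 of their 16 windows held a GC box. A match of letters is a description of the sequence and not evidence of binding.

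The first comparison was LPS against PBS in wild type mice. In these animals 15 of the 68 tested genes fell and 1 rose. All genes tested were called lower in 7.12% and higher in 10.9%, so the channel genes had a larger share lower (22.1%) and a smaller share higher (1.47%) than the table as a whole. Calls rest on edgeR's quasi-likelihood test with Benjamini-Hochberg adjustment over 14380 genes, at an adjusted p below 0.05. The falls that were called ranged from 0.16 to 0.76 on the log2 scale, or from 10.8 to 40.9%. Over all 68 genes the median log2 fold change was -0.13, against -0.01 over all genes tested, and 51 of 68 lay below zero (75.0%, against 51.8% of all genes). The summed level of all 84 genes was 4361, 4511 and 4682 CPM (lowest, median and highest) after PBS and 4109, 4263 and 4425 CPM after LPS, and these ranges overlapped.

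Among mice labelled knockout fewer genes were called, again mostly lower. Here 7 of the 68 genes fell and 1 rose, where 3.82% of all genes were called lower and 7.05% higher. Called falls ranged from 0.17 to 0.32 on the log2 scale, or from 10.9 to 20.0%. The median log2 fold change was -0.11, against 0.00 over all genes, and 54 of 68 genes lay below zero (79.4%, against 50.4%). Summed over the 84 genes, the PBS group had 4618, 4664 and 4773 CPM and the LPS group 4248, 4329 and 4503 CPM, and here the 2 groups did not overlap.

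The genotypes shared 3 of these calls: Kcnh7, Kcnc1 and Kcnq3 were lower in both. They make up 20.0% of the 15 genes lower in wild type and 42.9% of the 7 lower in mice labelled knockout. All 7 of the latter were below zero in wild type too, and 13 of the 15 wild type calls were below zero in mice labelled knockout. In all, 43 of 68 genes lay below zero in both genotypes, 6 above zero in both and 19 on opposite sides. No gene passed the test of the difference between the 2 LPS changes. The plot of log2 changes by family shows both genotypes side by side.

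**Figure D1:**
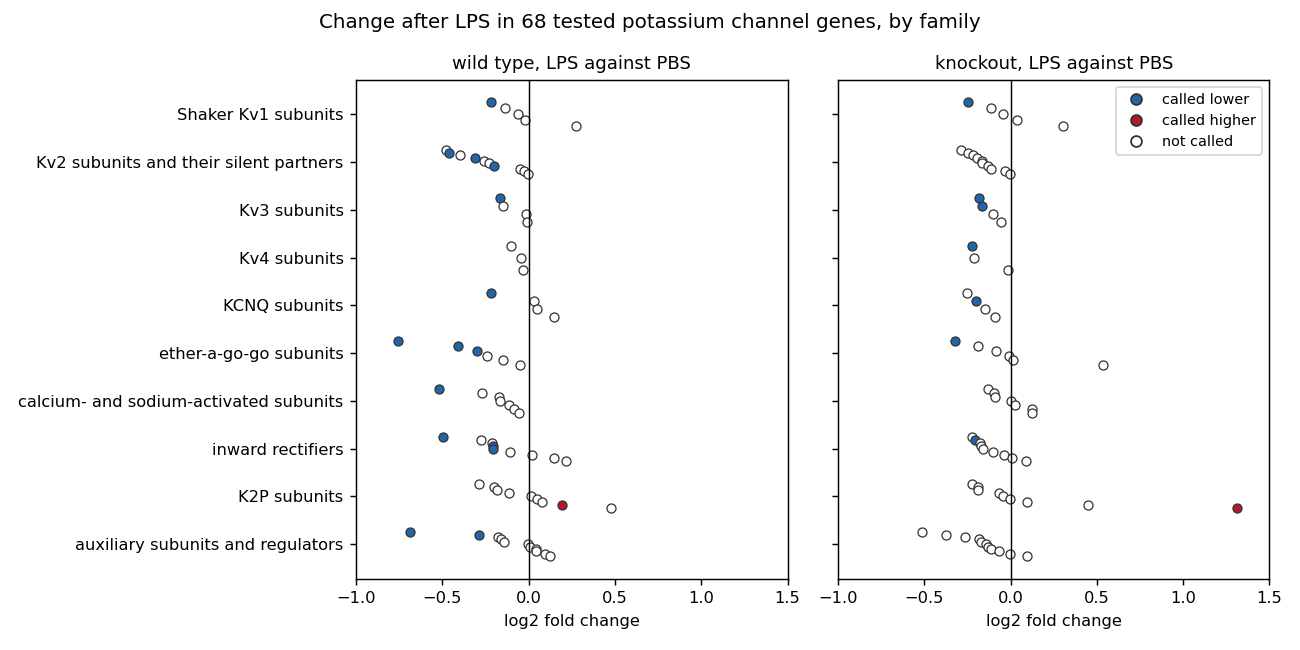
Log2 fold change (horizontal axis) of LPS against PBS for the 68 tested potassium channel genes, 1 point per gene, by family (vertical axis), in wild type (left) and in mice labelled knockout (right). Filled points passed an adjusted p under 0.05; 15 genes were called lower in wild type and 7 in mice labelled knockout, and most open points also lie left of zero.

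The same animals showed changes in markers of brain cell types. Summed over 12 neuron markers, levels were 8159 to 8407 CPM in wild type after PBS and 7263 to 7456 CPM after LPS, and 8109 to 8456 against 7327 to 7871 CPM in mice labelled knockout, with 7 and 3 of the 12 called lower. Snap25, a synaptic vesicle fusion protein, fell by 0.36 ± 0.06 in wild type (log2, SE, adjusted p = 5.19e-06). The mean sum fell by 11.1% in wild type and fell by 9.72% in mice labelled knockout, where the sum of the channel genes fell by 5.69% and fell by 7.25%, in the same order. Set against the neuron markers of its own library, the summed level of the channel genes was 0.546 ± 0.00840 (SD, n = 6) after PBS and 0.580 ± 0.0168 after LPS in wild type, and 0.564 ± 0.0128 and 0.579 ± 0.00943 in mice labelled knockout. By mean this ratio was higher after LPS in both genotypes. Its ranges were apart in wild type (0.533 to 0.557 after PBS and 0.560 to 0.599 after LPS). They overlapped in mice labelled knockout (0.546 to 0.579 and 0.572 to 0.597). The ratio holds for this marker list only, and ratios to other lists were not computed.

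Markers of other cells moved in both directions. Microglia markers summed to 284 to 348 CPM in wild type after PBS and 741 to 970 CPM after LPS, with 9 of 10 called higher in each genotype. Endothelium markers were 260 to 288 and 519 to 619 CPM, with 8 of 8 called higher in wild type and 7 of 8 in mice labelled knockout. Astrocyte markers summed to 6694 to 6928 and 6900 to 7433 CPM, with 7 of 12 higher and 2 lower in wild type and 5 higher and 1 lower in mice labelled knockout. Oligodendrocyte precursor markers summed to 448 to 534 and 404 to 439 CPM in wild type and 452 to 516 and 389 to 427 CPM in mice labelled knockout, apart in both, with 2 of 7 called lower in each genotype and 2 and 1 called higher. Oligodendrocyte markers, at 4820 to 5492 and 4199 to 5277 CPM in wild type and 4733 to 5229 and 4364 to 5077 CPM in mice labelled knockout, overlapped, with 4 and 3 of 9 lower and 3 of 9 higher in each. Cerebellum markers had 3 of 8 lower in wild type and 6 of 8 lower in mice labelled knockout. Other brain regions differed from this. Striatum markers had 3 of 8 lower and 1 higher in wild type, and 2 lower and 0 higher in mice labelled knockout. Hippocampus and cortex markers had 1 of 7 lower and 2 higher, and 2 lower and 0 higher, in the same order. Thalamus markers had 0 of 6 lower and 1 higher in wild type, and 0 called in mice labelled knockout. In none of these lists was a marker at 0. In bulk tissue fewer cells of a type and less RNA per cell cannot be told apart, and what part these shifts have in the changes of the channel genes was not tested.

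Markers of neighbouring tissue differed as well. Summed pituitary markers (6 hormone genes) stood at 2148 CPM in replicate 4 of the LPS group labelled knockout and at 7.06 to 22.2 CPM in the other 5. Without that library 6 of the 7 falls in mice labelled knockout remained and Kcnq3 was not called (-0.16, adjusted p = 0.111), and Kcnk6 remained higher. Olfactory bulb and nerve markers had 3 of 7 called lower in mice labelled knockout than in wild type after PBS and 4 of 7 after LPS, and 0 of 7 called between LPS and PBS in either genotype. Their part in the results on channel genes was not tested.

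**Figure D2:**
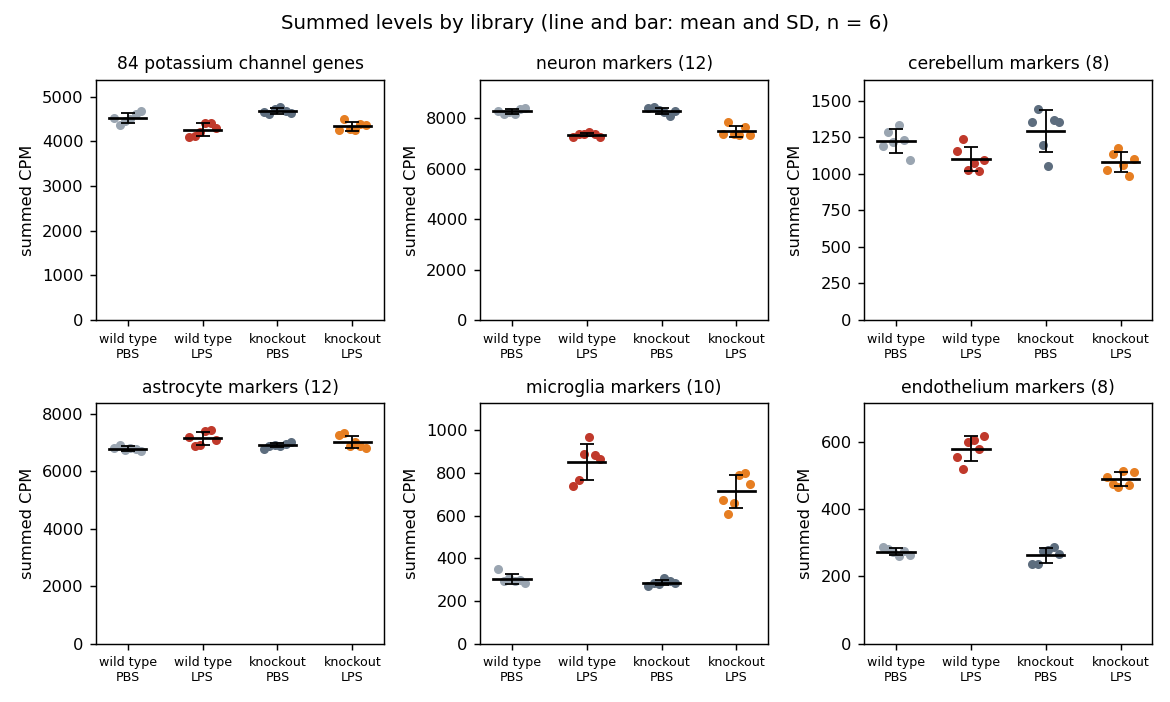
Summed CPM (vertical axis, from 0) of the 84 potassium channel genes and of 5 marker lists in each of the 24 libraries, by group (horizontal axis), with the mean as a line and the SD as a bar (n = 6). Channel genes and neuron markers were lower after LPS, with the 2 sets of neuron values apart in both genotypes, while microglia and endothelium markers were far higher.

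Among Kv1 subunits, which sit on axons and near terminals and hold down repetitive firing, 1 of 5 tested genes fell in each genotype, a different one each time. Kcna2 (chromosome 3, 107101146 to 107115005) was the gene that fell in wild type. Its lowest, median and highest levels were 299, 311 and 319 CPM after PBS and 247, 264 and 293 CPM after LPS. Every LPS library lay below every PBS library. The fall was 0.22 ± 0.05 on the log2 scale (SE, adjusted p = 0.000518). In knockout-labelled mice Kcna2 had 274, 299 and 323 CPM after PBS and 261, 277 and 300 CPM after LPS, overlapping ranges with a log2 fold change of -0.11 ± 0.05 (adjusted p = 0.131).

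Kcna6, the Kv1.6 subunit, was the gene called in mice labelled knockout. Levels were 122, 142 and 150 CPM after PBS and 105, 119 and 130 CPM after LPS, so the groups overlapped at their edges. It fell by 0.24 ± 0.06 (log2, adjusted p = 0.00694), against -0.06 ± 0.06 in wild type (adjusted p = 0.551). Kcna1, which forms the juxtaparanodal channels together with Kcna2, was not called: its medians were 248 and 240 CPM in wild type and 260 and 261 CPM in mice labelled knockout, with log2 fold changes of -0.02 ± 0.06 and 0.03 ± 0.06.

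Kv2 channels carry the slow delayed rectifier current of cell bodies, and their silent partners (Kcnf1, Kcng, Kcns and Kcnv subunits) form no channel alone but alter Kv2 gating. All 10 tested genes of this family lay below zero in both genotypes, with medians of -0.25 in wild type and -0.17 in mice labelled knockout, and 3 were called in wild type.

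Kcnv1 encodes Kv8.1, a silent subunit of forebrain neurons. It had 23.0, 25.4 and 31.0 CPM after PBS and 15.1, 18.5 and 22.8 CPM after LPS in wild type, without overlap. The fall was 0.46 ± 0.11 (log2, adjusted p = 0.00164). For animals labelled knockout the ranges, 23.9, 24.5 and 27.0 against 18, 20.3 and 29.0 CPM, overlapped, because 2 LPS libraries lay among or above the PBS libraries. The log2 fold change there was -0.19 ± 0.11 (adjusted p = 0.312).

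Kcns2, another silent subunit, was also called. Among wild type mice it had 16.0, 17.5 and 19.0 CPM after PBS and 11.5, 14.4 and 15.8 CPM after LPS, with no overlap. Its fall of 0.31 ± 0.11 (log2, adjusted p = 0.042) was near the threshold and lost its call when any 1 of 10 wild type libraries was left out, namely all but replicate 4 of each group, with adjusted p up to 0.0976. Without the 2 libraries that stand apart it was 0.25 lower (adjusted p = 0.157). The call was lost in 5 of 8 alternative fits, that one and DESeq2 (adjusted p = 0.0680) among them. In knockout-labelled animals medians were 17.4 and 16.6 CPM and the log2 fold change was -0.01 ± 0.11. Kcnb2, a pore-forming member, did not pass in either genotype, at -0.05 ± 0.09 and -0.17 ± 0.09.

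Kv3 channels open only on strong depolarisation and close fast, which lets interneurons and brainstem and cerebellar neurons fire at high rates. Kcnc1 (chromosome 7, 46396497 to 46438704) fell in both genotypes. In wild type it had 283, 297 and 302 CPM after PBS and 250, 263 and 274 CPM after LPS. Among knockout-labelled mice it had 278, 298 and 309 CPM after PBS and 257, 265 and 272 CPM after LPS. In both genotypes every LPS library lay below every PBS library. The falls were 0.16 ± 0.04 (log2, adjusted p = 0.00297) and 0.17 ± 0.04 (adjusted p = 0.00404). The difference between them was 0.00 ± 0.06, with a 95% interval from -0.12 to 0.12.

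Kv4 channels carry the transient A-type current of dendrites. Kcnd2, the Kv4.2 pore, had 176, 181 and 193 CPM after PBS and 139, 158 and 176 CPM after LPS in mice labelled knockout. The highest LPS library fell just short of the lowest PBS library. It fell by 0.22 ± 0.05 (log2, adjusted p = 0.00227), the smallest adjusted p among the channel genes in that genotype. Among wild type mice it had 158, 171 and 193 against 152, 159 and 174 CPM, overlapping ranges with a log2 fold change of -0.10 ± 0.05 (adjusted p = 0.181). Kcnd3, the Kv4.3 pore, stood at medians of 40.5 and 39.0 CPM in wild type and 43.5 and 42.9 CPM in mice labelled knockout.

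KCNQ subunits form the M-channel, a slow current that muscarinic receptors close and that restrains bursts. Kcnq3 (chromosome 15, 65986387 to 66286642) had 129, 148 and 155 CPM after PBS and 113, 122 and 144 CPM after LPS in wild type. In mice labelled knockout it had 138, 147 and 172 CPM after PBS and 115, 134 and 139 CPM after LPS. In each genotype the ranges overlapped, with all LPS medians below the lowest PBS library. The falls were 0.22 ± 0.06 (log2, adjusted p = 0.0107) and 0.20 ± 0.06 (adjusted p = 0.0293). The second ended as a call without any 1 of 5 libraries (PBS replicates 1, 3 and 4 and LPS replicates 4 and 5), with adjusted p up to 0.113.

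**Figure D3:**
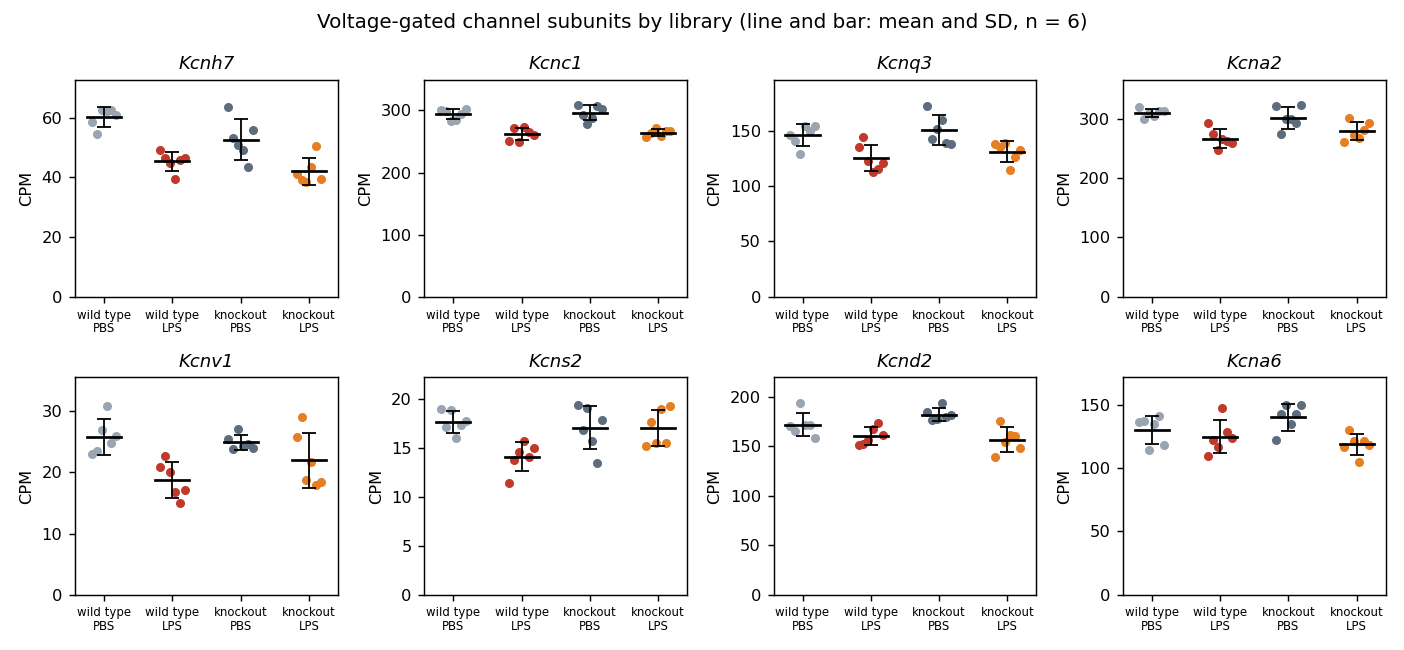
CPM (vertical axis, from 0) of 8 voltage-gated subunits in each of the 24 libraries, by group (horizontal axis), with the mean as a line and the SD as a bar (n = 6). Kcnc1 was lower after LPS in both genotypes without overlap, Kcna2, Kcnv1, Kcns2 and Kcnh7 without overlap in wild type, and Kcnd2 without overlap in mice labelled knockout.

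The ether-a-go-go family holds channels that open slowly and shape spike threshold and adaptation. Of its 6 tested genes 3 fell in wild type, and all 6 lay below zero there, with a median log2 fold change of -0.27. Kcnh7 (chromosome 2, 62693414 to 63184287), which encodes the ERG3 subunit, had the smallest adjusted p of all channel genes. In wild type its levels were 54.4, 61.6 and 62.6 CPM after PBS and 39.6, 46.1 and 49.1 CPM after LPS, without overlap. In knockout-labelled mice they were 43.4, 51.9 and 63.6 CPM after PBS and 38.6, 40.3 and 50.6 CPM after LPS, with overlap. The PBS animals of that genotype spread more widely and reached lower than those of wild type.

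Kcnh7 fell by 0.41 ± 0.08 (log2, adjusted p = 7.13e-05) in wild type and by 0.32 ± 0.08 (adjusted p = 0.00352) in mice labelled knockout. In percent it fell by 24.6% and fell by 20.0%. The difference between the genotypes was 0.09 ± 0.11, with a 95% interval from -0.14 to 0.31. The last 1000 bases of Kcnh7 overlap Gca on the opposite strand, a gene with 637 counts over all libraries against 4595 for Kcnh7. The strand setting of the count is not given in the sources used here, so tags of the 2 genes may not have been told apart.

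Kcnh1, the EAG1 subunit, had 66.4, 78.5 and 93.9 CPM after PBS and 58.9, 64.2 and 73.9 CPM after LPS in wild type. Ranges overlapped, and the median LPS library lay below the lowest PBS library. The fall was 0.30 ± 0.08 (log2, adjusted p = 0.00507), against -0.19 ± 0.08 (adjusted p = 0.13) in mice labelled knockout. Its 3′ end overlaps Hhat on the other strand, which had 137 counts against 6708. Kcnh3, the highest of the ELK subunits, had medians of 55.7 and 54.7 CPM in wild type and 55.9 and 56.4 CPM in mice labelled knockout.

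Kcnh5, the EAG2 subunit, was scarce, and its changes had opposite signs. In wild type it had 2.5, 3.6 and 5.1 CPM after PBS and 1.31, 1.96 and 3.38 CPM after LPS. For animals labelled knockout it had 1.10, 1.92 and 2.60 CPM after PBS and 1.63, 3.06 and 3.36 CPM after LPS. All these ranges overlap, and the PBS level of mice labelled knockout was as low as the LPS level of wild type. The fall in wild type was 0.76 ± 0.28 (log2, adjusted p = 0.0418). Without any 1 of 9 wild type libraries (PBS replicates 3 to 6 and LPS replicates 1 to 4 and 6) it was not called, with adjusted p up to 0.146, and without both libraries that stand apart it was 0.58 lower (adjusted p = 0.174). The fall in wild type was not called in 4 of 8 alternative fits, DESeq2 among them (adjusted p = 0.0716). In knockout-labelled animals the log2 fold change was 0.53 ± 0.30 (adjusted p = 0.292). The difference of 1.29 ± 0.41 was the largest among the 68 genes and did not pass (adjusted p = 0.281).

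Calcium- and sodium-activated channels link spiking to the afterhyperpolarisation that follows it. All 7 tested genes lay below zero in wild type and 3 of 7 did in mice labelled knockout. Kcnn3, the SK3 channel, was the gene that passed. Among wild type mice it had 9.95, 13.5 and 15.3 CPM after PBS and 7.75, 8.67 and 11.5 CPM after LPS. Among knockout-labelled mice it had 10.4, 10.8 and 12 CPM after PBS and 9.16, 12.4 and 13.3 CPM after LPS. The first pair of ranges overlapped with 4 of 6 LPS libraries below every PBS library, and the second pair overlapped with 4 of 6 LPS libraries above every PBS library. Kcnn3 fell by 0.52 ± 0.14 (log2, adjusted p = 0.00476) in wild type, and its log2 fold change in mice labelled knockout was 0.13 ± 0.14 (adjusted p = 0.68). The difference was 0.65 ± 0.20, with a 95% interval from 0.25 to 1.04 before adjustment, and was not called over all genes (adjusted p = 0.276).

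Kcnma1, the BK channel and the most abundant gene of this group, was not called in either genotype. It had 271, 288 and 306 CPM after PBS and 251, 277 and 293 CPM after LPS in wild type. In mice labelled knockout its levels were 288, 304 and 319 against 259, 279 and 298 CPM, with a log2 fold change of -0.13 ± 0.05 just outside the threshold (adjusted p = 0.0545). It was called lower there in 5 of 8 alternative fits, DESeq2 among them, and in 8 of 24 fits without 1 library, with adjusted p from 0.0272 to 0.175 over all of these. Kcnt1, the sodium-activated Slack channel, had log2 fold changes of -0.09 ± 0.07 and 0.12 ± 0.07.

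Inward rectifiers pass current near the resting potential. Kcnj3, Kcnj6 and Kcnj9 encode the GIRK1, GIRK2 and GIRK3 subunits, through which GABA-B and other G protein-coupled receptors silence neurons. Kcnj3 had 122, 127 and 132 CPM after PBS and 92.9, 110 and 125 CPM after LPS in wild type, with overlap at the edge. It fell by 0.20 ± 0.06 (log2, adjusted p = 0.00949), and by 0.14 (adjusted p = 0.0993) without the 2 libraries that stand apart, where the call ends. Among mice labelled knockout it was -0.16 ± 0.06 (adjusted p = 0.0757).

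Kcnj6 was lower in wild type, at 8.50, 9.95 and 11.8 CPM after PBS and 4.61, 7.17 and 10.1 CPM after LPS. Groups overlapped. The fall of 0.50 ± 0.18 (log2, adjusted p = 0.0419) ended as a call without any 1 of 8 libraries (PBS replicates 1, 2, 4 and 6 and LPS replicates 2, 3, 4 and 6), with adjusted p up to 0.116. In knockout-labelled mice the log2 fold change was -0.18 ± 0.17 (adjusted p = 0.625).

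Kcnj9 fell in mice labelled knockout, where it had 117, 119 and 126 CPM after PBS and 94.1, 105 and 111 CPM after LPS, without overlap. The fall was 0.21 ± 0.06 (log2, adjusted p = 0.00839). In wild type levels were 106, 115 and 126 against 93.3, 107 and 114 CPM, overlapping, with a log2 fold change of -0.11 ± 0.06 (adjusted p = 0.194). All 3 GIRK genes thus lay below zero in both genotypes, with 2 of the 3 called in wild type and 1 in mice labelled knockout.

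Kcnj10, the Kir4.1 channel of astrocytes, starts 11892 bases from the start of Kcnj9 on chromosome 1, and the 2 genes run in opposite directions. In wild type it had 115, 134 and 142 CPM after PBS and 107, 114 and 122 CPM after LPS. The ranges overlapped, and the LPS median lay below the lowest PBS library. It fell by 0.21 ± 0.06 (log2, adjusted p = 0.0143). For animals labelled knockout it had 112, 122 and 133 CPM after PBS and 101, 118 and 141 CPM after LPS, with no separation and a log2 fold change of -0.04 ± 0.06 (adjusted p = 0.819). The difference between genotypes was 0.17 ± 0.09 and did not pass (adjusted p = 0.534). In the same wild type libraries Gfap, the intermediate filament that reactive astrocytes raise, rose by 2.26 ± 0.10 on the log2 scale (adjusted p = 2.16e-22). The astrocyte list was mixed: with Gfap, 7 of its 12 markers were called higher and 2 were called lower.

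Kcnj16, the Kir5.1 subunit that pairs with Kir4.1, was not called. Its levels were 48.9, 53.9 and 60.4 CPM after PBS and 50.3, 61.4 and 72.1 CPM after LPS in wild type, a log2 fold change of 0.21 ± 0.08 that missed the threshold (adjusted p = 0.061). Without the 2 libraries that stand apart it was 0.25 and passed (adjusted p = 0.0363). In knockout-labelled animals it was 0.01 ± 0.08. Kcnj2, the Kir2.1 channel of vessels and of neurons, had medians of 9.74 and 7.82 CPM in wild type and 9.71 and 10.4 CPM in mice labelled knockout and was not called.

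Kcnj4, the Kir2.3 channel of forebrain neurons, depended on the 2 libraries that stand apart. Among wild type mice it had 124, 153 and 181 CPM after PBS and 112, 179 and 201 CPM after LPS. The 2 libraries held 112 and 147 CPM and the other 4 LPS libraries 177 to 201 CPM. With all libraries the log2 fold change was 0.14 ± 0.09 (adjusted p = 0.269), and without the 2 it was 0.29 (adjusted p = 0.00172). Among knockout-labelled mice levels were 156, 179 and 196 CPM after PBS and 148, 159 and 165 CPM after LPS, with a log2 fold change of -0.17 ± 0.09 (adjusted p = 0.227). The difference between the genotypes was -0.32 ± 0.12 (adjusted p = 0.357) with all libraries and -0.47 (adjusted p = 0.00653) without the 2. Kcnj4 was the single channel gene to pass that test in any fit that was run. Without the 2 libraries, 84 genes of the whole table passed it upwards and 165 downwards, of 14684 tested. With all libraries it was 0 and 1 of 14380, and that 1 gene was Cybb.

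**Figure D4:**
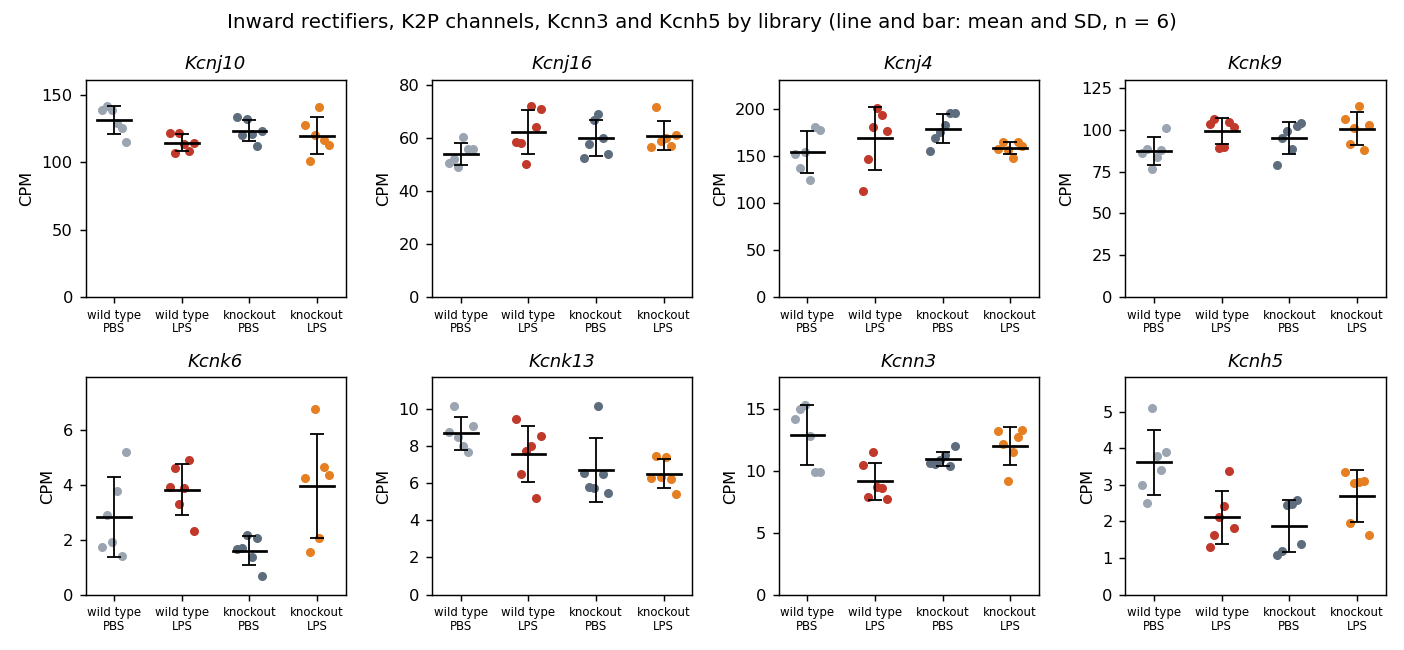
CPM (vertical axis, from 0) of 8 further channel genes in each of the 24 libraries, by group (horizontal axis), with the mean as a line and the SD as a bar (n = 6). Kcnj10 and Kcnn3 were lower after LPS in wild type, and 2 of the 6 Kcnj4 values in wild type after LPS, 112 and 147 CPM, lie below the other 4.

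The K2P channels, whose subunits have a pair of pore domains, carry the background leak that holds cells near rest. Of the 9 tested, 1 rose in each genotype and 0 fell. Kcnk9, the TASK-3 channel of neurons, had 76.3, 87.2 and 101 CPM after PBS and 89.4, 103 and 106 CPM after LPS in wild type, with overlap. Its rise was 0.19 ± 0.07 (log2, adjusted p = 0.0495), at the edge of the threshold. The call ended in 17 of the 24 fits that left out 1 library (adjusted p up to 0.152, without PBS replicate 3) and in 6 of 8 other alternatives, among them DESeq2 (adjusted p = 0.0627). In mice labelled knockout the log2 fold change was 0.10 ± 0.07 (adjusted p = 0.467).

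Kcnk6, the TWIK-2 channel, which is known from macrophages and vessels, rose in mice labelled knockout. It had 0.687, 1.67 and 2.18 CPM after PBS and 1.57, 4.30 and 6.76 CPM after LPS, and 2 LPS libraries lay within the PBS range. The rise was 1.31 ± 0.34 on the log2 scale (adjusted p = 0.00357), the largest change of any channel gene. In wild type it had 1.42, 2.40 and 5.19 CPM after PBS and 2.33, 3.90 and 4.92 CPM after LPS, with a log2 fold change of 0.48 ± 0.30 (adjusted p = 0.288). The difference of 0.83 ± 0.45 did not pass (adjusted p = 0.554). Only 280 counts over 24 libraries support this gene, and the filter dropped it when those 2 groups were fitted alone.

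Kcnk13, the THIK-1 channel that sets the resting potential of microglia, was not called in either genotype. Levels were 7.68, 8.62 and 10.2 CPM after PBS and 5.22, 7.89 and 9.49 CPM after LPS in wild type, with a log2 fold change of -0.20 ± 0.16 (adjusted p = 0.449). Among mice labelled knockout it had 5.50, 6.14 and 10.1 against 5.43, 6.30 and 7.45 CPM, a log2 fold change of -0.07 ± 0.18 (adjusted p = 0.883). In the same libraries C1qa, a complement gene of microglia, rose by 2.24 ± 0.08 on the log2 scale in wild type (adjusted p = 1.74e-25), while P2ry12, a marker of resting microglia, was at -0.28 ± 0.15 (adjusted p = 0.19). Kcnk2, the mechanosensitive TREK-1 channel, had log2 fold changes of 0.05 ± 0.07 and -0.04 ± 0.07.

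Among auxiliary subunits and regulators, 2 of the 11 tested fell in wild type and 0 were called in mice labelled knockout. Kcne1l, a small transmembrane subunit of the KCNE type, had 5.62, 11.8 and 16.6 CPM after PBS and 4.58, 7.93 and 10.4 CPM after LPS in wild type, with wide and overlapping ranges. It fell by 0.69 ± 0.19 (log2, adjusted p = 0.00681). In knockout-labelled mice it had 8.34, 10.7 and 13.4 against 5.28, 7.55 and 8.69 CPM, a log2 fold change of -0.51 ± 0.20 (adjusted p = 0.0897).

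Kcnip4, a calcium-binding KChIP protein that regulates Kv4, had 42.4, 51.4 and 63.6 CPM after PBS and 36.9, 42.9 and 52.9 CPM after LPS in wild type, with overlap. It fell by 0.29 ± 0.09 (log2, adjusted p = 0.0229). Leaving out any 1 of 5 libraries ended the call (PBS replicates 3 and 4 and LPS replicates 3, 4 and 6), with adjusted p up to 0.0949. For animals labelled knockout it was -0.13 ± 0.09 (adjusted p = 0.44). The last 1000 bases of Kcnip4 overlap 5730480H06Rik on the opposite strand, which had 1023 counts against 4533 for Kcnip4. Tags of these genes may likewise not have been told apart.

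The Kv1 beta subunits, which bring Kv1 channels to the axon, were not called. Kcnab2, the most abundant, had 130, 136 and 145 CPM after PBS and 135, 149 and 159 CPM after LPS in wild type, a log2 fold change of 0.12 ± 0.05 (adjusted p = 0.0988), which was 0.17 (adjusted p = 0.0289) without the 2 libraries that stand apart. Kcnab1 had medians of 73.9 and 68.3 CPM and a log2 fold change of -0.14 ± 0.07 (adjusted p = 0.138), which was -0.20 (adjusted p = 0.048) without them.

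**Figure D5:**
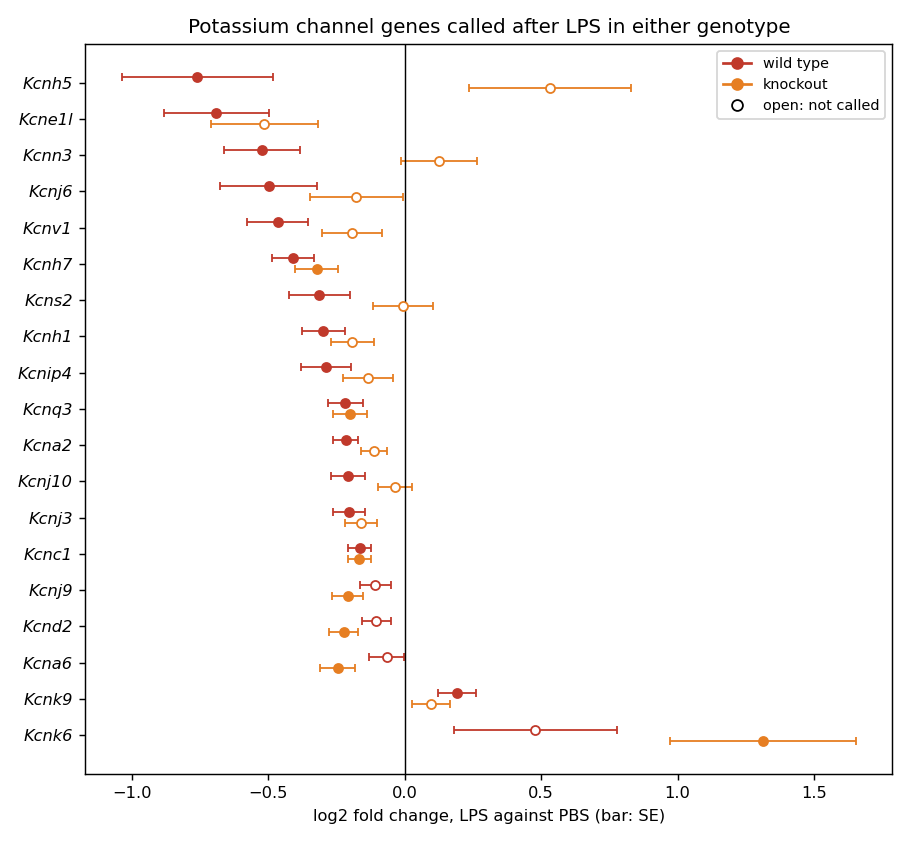
Log2 fold change of LPS against PBS (horizontal axis) with its SE for 19 potassium channel genes (vertical axis) called in at least 1 genotype, in wild type (red) and in mice labelled knockout (orange); open points were not called. Kcnh7, Kcnc1 and Kcnq3 were lower in both genotypes, and Kcnh5 and Kcnn3 lie on opposite sides of zero.

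Without the 2 libraries that stand apart, the wild type comparison called 12 of 68 channel genes lower and 4 higher. Of all 14684 genes tested in that fit, 1182 were called lower and 1716 higher. Of the 15 genes lower with all libraries 11 remained, Kcnab1 was added, and Kcnj3, Kcnh5 and Kcns2 were among the 4 lost. The 4 higher included Kcnab2, Kcnj4 and Kcnj16, and Kcnk9 was lost. The falls of Kcnh7, Kcna2, Kcnv1, Kcnc1, Kcnn3, Kcnh1, Kcne1l, Kcnq3, Kcnj10 and Kcnip4 were called without both libraries and without either one. Kcnj6 was called without both but not without LPS replicate 2 alone (-0.40, adjusted p = 0.116).

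Counted another way, 7 genes in wild type had every LPS library below every PBS library, among them Kcnv1, Kcnc2, Kcna2, Kcns2, Kcnc1 and Kcnh7. Among all genes tested 2.06% did so. In knockout-labelled animals it was 3 genes, Kcnj9, Kcnc1 and Kcnd2, where 1.72% of all genes did. No channel gene had every LPS library above every PBS library in either genotype, where 5.88% and 4.24% of all genes did. Kcnc2, the Kv3.2 subunit, was separated without passing the test, with means of 52.1 and 47.2 CPM and a log2 fold change of -0.15 ± 0.08 (adjusted p = 0.191).

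The genotypes were then compared within each injection. After PBS 0 of 68 channel genes were called in edgeR, where 0.0417% of all genes were higher and 0.0904% lower in mice labelled knockout. Log2 differences ran from -0.92 (Kcnh5) to 0.33, 61 of 68 were within 0.25 of zero, and 11 had an unadjusted p under 0.05, with a smallest adjusted p of 0.284. After LPS it was again 0 of 68, against 0.264% higher and 0.786% lower. Differences ran from -0.36 to 0.49, 60 of 68 were within 0.25 of zero, and 7 had an unadjusted p under 0.05, with a smallest adjusted p of 0.226. DESeq2 called 0 in both. A single gene was separated: Kcnb2 had 33.8, 35 and 35.8 CPM in mice labelled knockout after LPS and 35.9, 40.9 and 44.5 CPM in wild type, adjoining ranges with a log2 difference of -0.21 ± 0.09 (adjusted p = 0.369). Among all genes 0.389% were separated in that direction. No channel gene was separated upwards after LPS (0.257% of all genes) or, after PBS, upwards (0.229%) or downwards (0.188%).

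The test of whether LPS acted differently in the 2 genotypes called 0 of 68 channel genes, where 0.00695% of all genes were called, and DESeq2 also called 0. That share is 1 gene, Cybb, the targeted gene itself (-3.90 on the log2 scale, adjusted p = 2.34e-15 in edgeR). By unadjusted p under 0.05, 6 genes differed. For 62 of 68 genes the unadjusted 95% interval of the difference included 0, the median size of the difference was 0.14 on the log2 scale, and 54 of 68 estimates lay within 0.25 of zero. A gene called in 1 genotype and not in the other is therefore not shown to differ between them.

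Genes that act with the channels but carry other symbols moved in both directions. Of 25 tested partners (of 27 listed) 9 fell and 2 rose in wild type, and 5 fell and 2 rose in mice labelled knockout. Hcn2, a pacemaker channel that carries the cation current opposing potassium efflux, fell by 0.33 ± 0.08 (log2, adjusted p = 0.0015) and by 0.47 ± 0.08 (adjusted p = 1.23e-05). Rgs7bp, which anchors the RGS7 complex that speeds the closing of GIRK channels, fell by 0.25 ± 0.04 (adjusted p = 1.40e-05) and by 0.22 ± 0.04 (adjusted p = 0.000216). Lgi4, a secreted protein of glia, rose by 0.78 ± 0.09 (adjusted p = 6.69e-09) and by 0.66 ± 0.10 (adjusted p = 9.48e-07). Abcc9, the SUR2 subunit of ATP-sensitive potassium channels in vessels, rose by 0.96 ± 0.18 (adjusted p = 3.55e-05) and by 0.72 ± 0.17 (adjusted p = 0.00241).

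Pumps and cotransporters, which restore the gradients that the channels spend, had 5 of 15 lower and 3 higher in wild type and 2 lower and 3 higher in mice labelled knockout. Slc12a5, the neuronal potassium-chloride cotransporter KCC2, fell by 0.19 ± 0.04 (log2, adjusted p = 0.00105) in wild type. Fxyd7, a sodium pump regulator of neurons, fell by 0.37 ± 0.07 (adjusted p = 0.00022) and by 0.25 ± 0.07 (adjusted p = 0.0211). Fxyd1, a sodium pump regulator also called phospholemman, rose by 0.90 ± 0.10 (adjusted p = 2.95e-10) in wild type and by 0.61 ± 0.10 (adjusted p = 1.15e-05) in mice labelled knockout. After LPS it was lower in mice labelled knockout than in wild type by 0.40 ± 0.09 (adjusted p = 0.0177).

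Of the 16 genes too scarce to test, 2 are known from immune cells. Kcna3, the Kv1.3 channel of T cells and microglia, had 14 counts in all, with 5 in wild type after PBS, 3 in wild type after LPS, 4 and 2 in the PBS and LPS groups labelled knockout. Kcnn4, the KCa3.1 channel of lymphocytes and macrophages, had 54 counts, with 10 and 22 in wild type after PBS and LPS and 7 and 15 in the same order in mice labelled knockout. At this depth no statement on their change is possible. The other 14 were Kcng3, Kcne3, Kcnk7, Kcnj14, Kcnh6, Kcnrg, Kcnk15, Kcnj15, Kcnq1, Kcnmb1, Kcnj5, Kcnk5, Kcnh8 and Kcne4.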

How the data were processed

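The authors deposited a table of whole-number counts of 3′ tags per gene for 24 libraries, made with the QuantSeq 3′ kit per the labels' protocols. They name bcl2fastq, the aligner STAR (2.7.3a), Subread (2.0.0) with its counter featureCounts, DESeq2 (1.26.0), R (3.6.1) and the mouse build GRCm38, per the submitters' processing notes. Strand setting, removal of duplicates and annotation release were not given in the sources used here. Tags carry no molecular identifiers in these sources, so counts measure reads and not molecules. Identifiers without a symbol (267) were kept as genes and held 0.00933 to 0.0220% of a library.

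From the deposited counts, edgeR 4.0.16 (R 4.3.3) fitted all 24 libraries together, with TMM normalisation, a mean for each of the 4 groups, filterByExpr with a minimum count of 10, which kept 14380 genes, and the quasi-likelihood F test on 20 residual degrees of freedom. Of the 84 potassium channel genes 68 were tested. Within each of 5 comparisons Benjamini-Hochberg adjustment ran over the 14380 genes, with calls at an adjusted p below 0.05. The fit was tested on simulated counts first. The changes simulated were larger than most of the falls called here, and recovery of smaller changes was not tested. Log2 values carry the SE of the fit, and levels the SD over animals. Positions come from a GENCODE annotation of GRCm38, and promoters from the RefSeq table (GRCm38.p6). Counting noise limits the precision of scarce genes: 1 CPM stands for 2.34 to 5.26 counts.

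Replicates are animals per the labels. DESeq2 1.42.0, other filters and normalisation, a replicate block, fits of the 2 groups alone, robust estimation, and leaving out each library or both that stand apart were run as alternatives. Robust estimation was chosen after seeing the data. Named were the genes called in any comparison, the 2 most abundant of each family, 7 genes known from glia, vessels or immune cells (Kcnj10, Kcnj16, Kcnj2, Kcnk13, Kcnk6, Kcnn4 and Kcna3), the called genes of the partner and pump lists with the smallest p, and Cybb. Some channel genes that the rule takes are included in the counts but are not reported here by name. Genes named for separated groups were chosen after their values were seen, as were Slc12a5 and P2ry12. The channel genes, families and lists were chosen with earlier results of these data known. Lists of other cell types were also read and are not reported further.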

Additional observations from a re-analysis of the deposited data

Results flagged for a closer look

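Among the 34 named genes in 4 groups of 6 libraries each, 5 of 136 groups (3.68%) held a library whose gap to the nearest other, divided by the range of the group, passed Dixon's 95% critical value. Chance gives about 1 in 20 such groups. In the LPS group labelled knockout, Kcna3 was at 0.436 CPM in replicate 3 and at 0 in the other 5, a difference of 2 counts. Replicate 2 of that group had 44.7 CPM of Kcnh3, where the others had 55.4 to 61.5 CPM. The same library had 71.8 CPM of Kcnj16, where the others had 56.7 to 61.1 CPM. In the PBS group labelled knockout, Kcnip4 was at 67.3 CPM in replicate 6, with the others at 47.3 to 53.6 CPM. Kcnk13, the microglial THIK-1 channel, was at 10.1 CPM in replicate 4 of that group, with the others at 5.50 to 6.58 CPM.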

How the results depend on the processing

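Of the 24 calls on channel genes, all 24 kept their direction in every fit that was run, 17 were called in every fit without 1 library, 18 in every other alternative and 15 in all. The count of genes lower after LPS was 12 to 17 in wild type (15 as reported; 11 to 17 without 1 library) and 7 to 9 in mice labelled knockout (7 as reported; 5 to 8). The count higher in wild type (1, Kcnk9) was unstable: it was 0 with RLE normalisation, DESeq2, no filter, a filter of 1 CPM in 6 libraries, or only the 2 groups, 2 with robust estimation, 4 without both libraries that stand apart, and 0 to 2 without 1 library. In mice labelled knockout the count higher (1, Kcnk6) was 0 with only the 2 groups, where Kcnk6 did not pass the filter. Without both libraries that stand apart, 1 gene (Kcnj4) was lower in mice labelled knockout after LPS (-0.24, adjusted p = 0.0406) and 1 (Kcnj4) in the interaction. Of all 14684 genes tested in that fit, 384 were lower in the first comparison and 165 in the second. The main fit did not pair animals by replicate number. Of 36 pairs of same-numbered libraries 2 had a correlation over 0.1 (range -0.0766 to 0.165), and 9 of 24 libraries correlated best with their own number. Between genotypes after LPS, the replicate block called 71 genes of the whole table higher and 202 lower, against 38 and 113 without it. Whether the numbers mark animals handled together was not tested. With the replicate block 2 genes were higher in wild type (Kcnk9 and Kcnj16, 0.21, adjusted p = 0.0408).

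Of 42 named values that were not called, 8 were called in some fit and 11 changed sign in some fit, all of them close to zero. Without both libraries that stand apart, Kcnh3 was at 0.0261 in wild type. With no filter Kcnj16 was at -0.000136 in mice labelled knockout. Without 1 library, wild type values ran from -0.000312 to 0.10 for Kcnk2, -0.12 to 0.0357 for Kcnb2 and -0.0626 to 0.0142 for Kcna1. In mice labelled knockout they ran from -0.0875 to 0.00214 for Kcnj10, -0.0236 to 0.23 for Kcnj2, -0.12 to 0.10 for Kcnk13, -0.0399 to 0.0121 for Kcnd3, -0.0417 to 0.0346 for Kcnh3, -0.0360 to 0.0533 for Kcnj16 and -0.0661 to 0.0327 for Kcns2. The cause of these changes was not tested. Depth limits the genes under about 3 CPM, such as Kcnh5 and Kcnk6.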

Other observations

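Kcnq1ot1, a long noncoding RNA made from the antisense strand of Kcnq1 and known for silencing an imprinted cluster, is outside the protein-coding set but carries a Kcn symbol and 21747 counts. It fell by 0.19 ± 0.05 after LPS in wild type (log2, SE, adjusted p = 0.0117 in edgeR), and its log2 fold change in mice labelled knockout was 0.06 ± 0.05 (adjusted p = 0.586). The difference of 0.25 ± 0.08 did not pass (adjusted p = 0.287). The host gene Kcnq1 had 53 counts in all libraries. This transcript was chosen after its values were seen.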
